A study of Mus musculus with 4 samples.

Results

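The genes of MHC class I antigen presentation were followed in 4 lines of mouse fibroblasts, of which 2 overexpressed melanotransferrin and 2 carried an empty vector. The members were 10 genes chosen by name for their function: B2m, H2-K1, H2-D1, Tap1, Tap2, Tapbp, Psmb8, Psmb9, Psmb10 and Erap1. Every probe set that the platform annotation pairs with a member was taken, which gave 31 of the 45037 non-control probe sets on the array. Of these, 28 name 1 member alone and 3 are shared between a member H2 gene and other H2 genes or a predicted gene. A filter on low signals, set at the median of all probe sets (a signal of about 196), passed 23 of the 31. The other 8 have signals but no test, and among them are both probe sets of Psmb8.

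The lines named MTf 4 and MTf 6 were clones of LMTK- cells stably transfected with the expression vector pCI-neo holding the cDNA of mouse melanotransferrin. The lines named vector 1 and vector 2 were LMTK- cells with pCI-neo alone. LMTK- is a fibroblast line of the L cell family that lacks thymidine kinase, and pCI-neo drives its insert from a cytomegalovirus promoter and carries neomycin resistance, so all 4 lines share the host and the vector. Total RNA of each line was measured on 1 Affymetrix mouse genome array, and no interferon or other treatment is named in the labels. Each group thus has 2 arrays of 2 lines, nothing in the labels ties the vector lines to separate clones, and p-values measure the spread between these samples, which may in part be technical.

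The deposited signals of the 4 arrays had a common trimmed mean, 1000.01, and precision is limited by there being 4 arrays. Meltf, the melanotransferrin gene, gave signals of 1518.5 in MTf 4 and 1884.5 in MTf 6, against 265 in vector 1 and 274 in vector 2, as the labels say. Its log2 difference of 2.52 did not pass limma's test (adjusted p = 0.0903), so the threshold was missed by the overexpressed gene too. Tk1, the thymidine kinase the host lacks, was below the filter, with 53.2 and 206 in MTf 4 and MTf 6, against 61.0 and 112 in vector 1 and vector 2. Of 12 fibroblast markers 9 passed the filter, among them Vim and Col1a2, while Lum, Dcn and Thy1 did not. Of 12 markers of macrophages and other professional antigen-presenting cells 5 passed (Cd68, Adgre1, Csf1r, Cd74 and H2-Eb1), and 2 of 6 lymphocyte, 1 of 4 epithelial and 1 of 3 endothelial markers did. The common leukocyte antigen Ptprc, below the filter, had signals of 88.8 and 7.3 in MTf 4 and MTf 6, against 87.7 and 35.1 in vector 1 and vector 2. The summed signal of the 12 antigen-presenting cell markers was 4233 in MTf 4 and 2445 in MTf 6, against 3648 in vector 1 and 2886 in vector 2. Cd74 was the brightest of the 12 in each line, with 2101 in MTf 4 and 1034 in MTf 6, against 1616 in vector 1 and 763 in vector 2. The part of these markers in the results was not tested.

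Class I molecules show peptides from inside the cell to cytotoxic T cells. A polymorphic heavy chain, such as the products of H2-K1 and H2-D1, pairs with beta-2-microglobulin, the product of B2m. Peptides cut by the proteasome, in part by the interferon-inducible immunoproteasome, are carried into the endoplasmic reticulum by the transporter of Tap1 and Tap2, trimmed there by Erap1 and loaded with the help of tapasin, the product of Tapbp. Nearly all nucleated cells, fibroblasts included, express class I at some level, and interferons raise the whole set together.

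The comparison asked whether these genes differ with melanotransferrin overexpression, and no member differed past the threshold. Of the 23 tested member probe sets 0 passed limma's test of MTf against vector (adjusted p = 1.00 for each), and 0 were under an unadjusted 0.05. Over all 22519 probe sets tested the adjusted test called 1, lower in MTf, or 0.00444%, and an unadjusted 0.05 was passed by 1.9%. Counted as 1 probe set per gene, the log2 difference was positive for 8 of the 9 tested genes, beside 5231 of all 10682. Over the 23 tested member probe sets it was positive for 17 and negative for 6, with a median of 0.12. Over all probe sets tested the median was -0.01 and 48.7% were positive. With arrays centred on their medians the split was 20 positive and 3 negative. The split rested on single lines: 3 of 23 were positive without MTf 4 and 8 without vector 1, but 18 without vector 2 and 22 without MTf 6. In RNA of whole cultures, more cells with a transcript and more of it per cell cannot be told apart. Both MTf lines lay above both vector lines for 3 member probe sets, where 12.2% of all probe sets did so. They lay below them for 0, where 13.6% did. The groups were thus apart for 3 of 23, against 25.8% of all. Those 3 were single probe sets of H2-D1, Tap1 and Erap1. The intervals were wide: they reached from -0.37 to 0.51 for the brighter B2m probe set, the narrowest among the brightest probe sets of the 9 tested genes, and from -1.06 to 1.14 for Psmb9, the widest among them. An exact two-sided permutation test of 2 lines against 2 cannot give a p under 0.333.

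**Figure D1:**
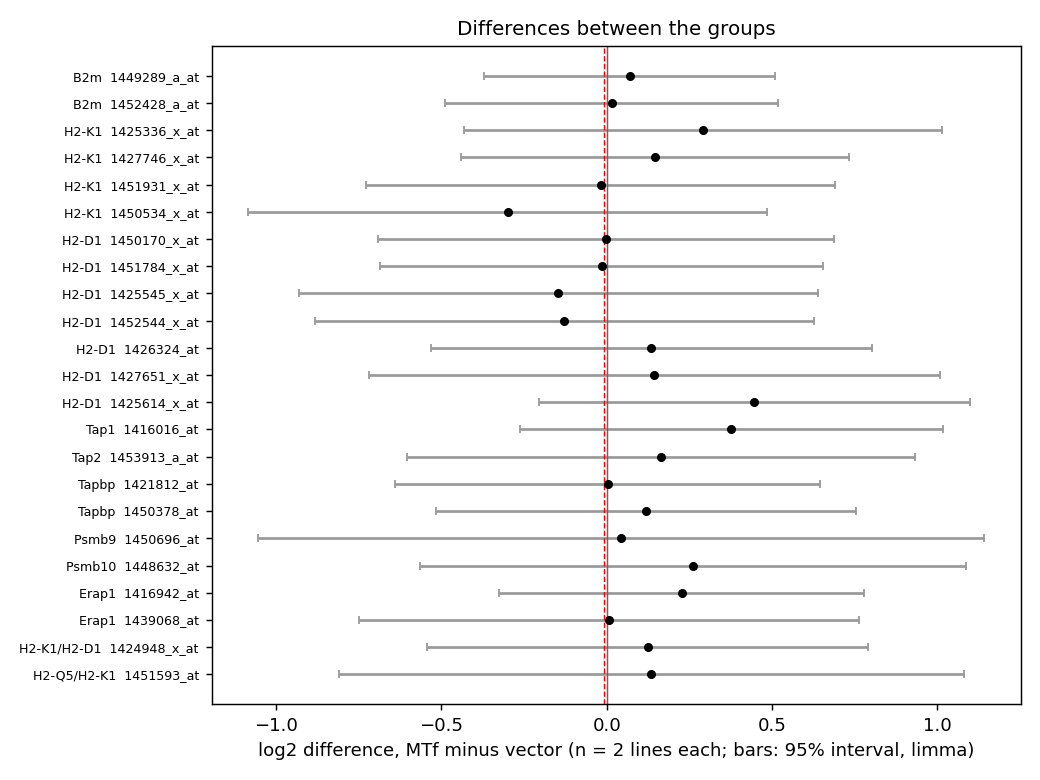
Log2 difference of MTf minus vector for the 23 tested member probe sets, with points for limma's estimate and bars for its 95% interval; the dashed line is the median of all tested probe sets. Every interval includes 0.

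Most tested member probe sets set MTf 4 and vector 2, 1 line of each group, on top, but the full order of lines varied. MTf 4 had the highest signal of the 4 lines for 21 of 23 tested member probe sets, against 30.4% of all probe sets tested. MTf 4 and vector 2 were the 2 highest lines, in either order, for 16 of 23, against 27.0% of all. MTf 6 and vector 1, a clone and a control line, stood close together below them. Centred on each probe set's own mean, the members had median log2 values of 0.41 and -0.31 in MTf 4 and MTf 6, against -0.21 and 0.11 in vector 1 and vector 2. Over all tested probe sets these medians were 0.03 and -0.02 in MTf 4 and MTf 6, against 0.00 and 0.02 in vector 1 and vector 2. Of the 9 tested fibroblast markers 8 were also highest in MTf 4, but MTf 4 and vector 2 were the 2 highest lines for only 4 of the 9. The summed signal of the 12 on the array was 280372 in MTf 4 and 225677 in MTf 6, against 207640 in vector 1 and 233767 in vector 2. That is the order of the members' medians but for the 2 lowest lines. Vim and S100a4 were the brightest of the 12 in each line. The part of the fibroblast markers in the members' medians was not tested. Each line was hybridised once, so the order of neighbouring lines has no replicate check.

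**Figure D2:**
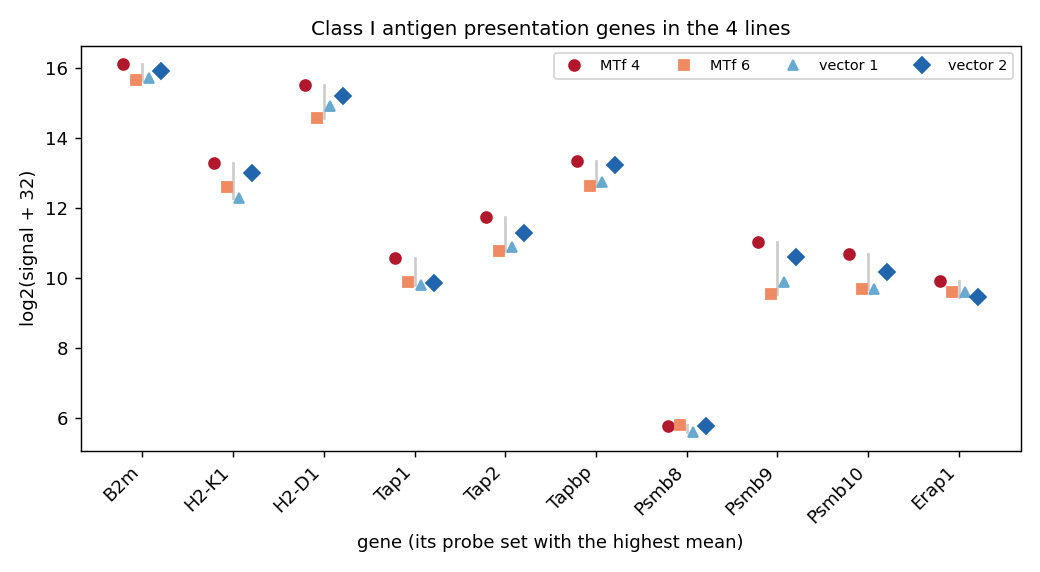
Signal of each member gene in the 4 lines, as log2(signal + 32), taking the brightest probe set of each gene; each point is 1 array and the grey bar spans the 4. MTf 4 is the highest line for 9 of the 10 genes, and Psmb8 lies near the bottom of the scale in every line.

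B2m encodes the light chain of class I molecules. By its brighter probe set it had a signal of 70579 in MTf 4 and 52026 in MTf 6, against 53955 in vector 1 and 61787 in vector 2. The groups overlapped, with MTf 6 the lowest line. Its second probe set gave 63740 in MTf 4 and 43742 in MTf 6, against 46930 in vector 1 and 58168 in vector 2, in the same order of lines. The log2 differences of MTf minus vector were 0.07 (SE 0.19) and 0.02 (SE 0.22), and quantile normalization turned both below 0.

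H2-K1 and H2-D1 encode the classical heavy chains. The brightest H2-D1 probe set gave 47112 in MTf 4 and 24359 in MTf 6, against 30737 in vector 1 and 37420 in vector 2. The 2 vector lines thus lay between the 2 clones, and the group difference was 0.00 (SE 0.30). The brightest H2-K1 probe set measured 10082 in MTf 4 and 6156 in MTf 6, against 5006 in vector 1 and 8260 in vector 2. Here vector 1 was the lowest line, and the group difference was 0.29 (SE 0.31). A probe set shared by H2-K1 and H2-D1 had a signal of 17137 in MTf 4 and 10282 in MTf 6, against 10049 in vector 1 and 14760 in vector 2.

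Class I heavy chains are highly polymorphic and near copies of each other, so their probe sets can bind several of them, and no share of a signal was assigned to a single chain. H2-D1 had 9 probe sets, of which 7 passed the filter, and H2-K1 had 4, all of which passed. In all 11 MTf 4 was above MTf 6, by log2 differences of 0.31 to 1.08. The vector lines were less uniform. Vector 2 was above vector 1 in 9 of the 11, but the dimmest of H2-K1 read 329 in vector 2 and 526 in vector 1. Likewise a dim probe set of H2-D1 read 335 in vector 2 and 715 in vector 1. The probe set of H2-D1 that set the groups apart was a dim one too, with 486 in MTf 4 and 386 in MTf 6, against 304 in vector 1 and 315 in vector 2. Its group difference was 0.45 (SE 0.28, 95% interval -0.21 to 1.10). Below the filter, 1 probe set of H2-D1 had 366 in MTf 4 and 38.0 in MTf 6, against 217 in vector 1 and 224 in vector 2, and the other lay between 80.7 and 112. Of the shared probe sets, the 1 of H2-Q5 and H2-K1 read 389 in MTf 4 and 179 in MTf 6, against 267 in vector 1 and 214 in vector 2.

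The promoters of the chain genes H2-K1, H2-D1 and B2m are shown, though their orders of lines were not particular to them. By brightest probe set Tap2, Tapbp and Psmb9 had the order of B2m, and Psmb10 had that of H2-K1. The sequences are from RefSeq (GRCm38.p6, C57BL/6J, whereas L cells come from C3H mice). A promoter of 250 bases before to 50 after the start was available for 9 of the 10 members, Tap2 excepted. Motifs searched on both strands were AANNGAAA, the core that interferon regulatory factors bind, TTCNNNGAA, the STAT type, GGGATTCCC, a kappaB type, and TGACG, the CRE core; none of the matches overlap in the promoters shown. Capitals mark their matches. The lines below are H2-K1 (chr17:34000298-34000597, minus strand), H2-D1 (chr17:35262844-35263143, plus strand) and B2m (chr2:122147437-122147736, plus strand), each on the strand of its gene.
H2-K1: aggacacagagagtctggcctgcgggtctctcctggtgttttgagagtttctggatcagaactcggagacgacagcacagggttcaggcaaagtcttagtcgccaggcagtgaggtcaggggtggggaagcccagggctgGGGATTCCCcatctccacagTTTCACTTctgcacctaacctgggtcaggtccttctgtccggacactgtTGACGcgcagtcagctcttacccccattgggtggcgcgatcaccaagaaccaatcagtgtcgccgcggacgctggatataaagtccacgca
H2-D1: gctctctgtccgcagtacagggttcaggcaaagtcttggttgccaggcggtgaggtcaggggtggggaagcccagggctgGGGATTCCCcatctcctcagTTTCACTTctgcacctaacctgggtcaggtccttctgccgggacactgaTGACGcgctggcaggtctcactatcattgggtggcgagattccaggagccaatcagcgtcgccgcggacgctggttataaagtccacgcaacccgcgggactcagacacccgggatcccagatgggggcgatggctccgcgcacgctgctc
B2m: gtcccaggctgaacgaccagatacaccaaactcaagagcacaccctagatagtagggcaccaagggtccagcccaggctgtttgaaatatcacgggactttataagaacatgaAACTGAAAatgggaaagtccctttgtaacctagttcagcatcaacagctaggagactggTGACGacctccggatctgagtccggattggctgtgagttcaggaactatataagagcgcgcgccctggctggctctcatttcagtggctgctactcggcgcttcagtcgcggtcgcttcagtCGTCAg

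H2-K1 and H2-D1 shared an unbroken run of 47 bases that holds the kappaB type match, and in each an IRF type match and then a CRE core match follow nearer to the start. The kappaB type occurred in 2 of the 9 member promoters, both times within the run shared by H2-K1 and H2-D1. Of 32851 RefSeq promoters of the same window size 0.353% hold it. Motif spellings were chosen with the promoters in view, so the counts and shares given here do not test whether a motif is frequent among members. The IRF type occurred in 4 of 9 (H2-K1, H2-D1, B2m and Erap1), against 23.9% of all promoters. The CRE core occurred in 5 of 9, against 20.8%, and the STAT type in 1 of 9, that of Psmb8, against 8.3%. The promoters of Tapbp and Psmb10 held no match to any of the 4 motifs. A match is a string of letters and was not tested as a binding site.

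Tap2 and Tapbp, of peptide transport and loading, followed the order of lines of B2m. Tap2, a subunit of the peptide transporter, gave 3383 in MTf 4 and 1724 in MTf 6, against 1858 in vector 1 and 2496 in vector 2. The clones thus spanned the vector lines, and the group difference was 0.16 (SE 0.33). Tapbp, which bridges the transporter and the class I chain, measured 10369 in MTf 4 and 6376 in MTf 6, against 6848 in vector 1 and 9611 in vector 2. Its second probe set kept that order, and the group differences were 0.00 (SE 0.28) and 0.12 (SE 0.27).

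Tap1, the partner subunit of Tap2, departed from this pattern in vector 2. Its signal was 1482 in MTf 4 and 912 in MTf 6, against 872 in vector 1 and 904 in vector 2. MTf 4 stood alone, and the other 3 lines lay between 872 and 912, so that MTf 6 was above the vector lines by little. The group difference was 0.38 (SE 0.27, 95% interval -0.26 to 1.02). Of the 4 probe sets of Tap1 this 1 passed the filter, and the other 3 had signals of 9.6 to 161 with no common order of lines.

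Tap1 and Psmb9 lie head to head on chromosome 17, and their RefSeq promoter windows overlap in 275 bases on opposite strands. The window is shown because its 2 genes differed in vector 2, which was close to vector 1 for Tap1 and above it for Psmb9. It lies at chr17:34187306-34187605 and is written on the plus strand, that of Tap1, with the CRE core in capitals, the only one of the 4 motifs found in it.
Tap1: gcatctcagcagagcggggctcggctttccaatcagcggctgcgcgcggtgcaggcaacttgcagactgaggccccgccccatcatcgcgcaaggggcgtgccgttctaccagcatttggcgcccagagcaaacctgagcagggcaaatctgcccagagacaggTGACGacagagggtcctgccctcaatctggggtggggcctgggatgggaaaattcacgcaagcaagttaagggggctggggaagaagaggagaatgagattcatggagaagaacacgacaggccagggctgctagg

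Psmb9, a catalytic subunit of the immunoproteasome, showed the widest difference between lines of the tested member probe sets. It had a signal of 2051 in MTf 4 and 718 in MTf 6, against 910 in vector 1 and 1531 in vector 2. MTf 4 was thus 2.78-fold above MTf 6 and vector 2 was 1.66-fold above vector 1, on the log2(signal + 32) scale used for every fold here. Psmb10, another catalytic subunit, read 1631 in MTf 4 and 801 in MTf 6, against 799 in vector 1 and 1129 in vector 2. Its group difference was 0.26 (SE 0.35), and that of Psmb9 was 0.04 (SE 0.47). In both genes the 2 clones lay farther apart than the 2 group means.

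Psmb8, the third catalytic subunit of the immunoproteasome, was dim in every line. Its probe set with the higher mean gave 22.6 in MTf 4 and 23.9 in MTf 6, against 16.7 in vector 1 and 22.7 in vector 2. The other measured 4.5 in MTf 4 and 21.0 in MTf 6, against 22 in vector 1 and 8.2 in vector 2. Detection calls were not used here, and levels of different probe sets are not comparable, so these signals do not show how Psmb8 stood relative to Psmb9 and Psmb10.

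Erap1, the aminopeptidase that trims peptides in the endoplasmic reticulum, varied least after B2m, by the brightest probe set of each tested gene. It had a signal of 930 in MTf 4 and 747 in MTf 6, against 744 in vector 1 and 673 in vector 2. Both clones were thus above both vector lines, MTf 6 by little. Its dimmer probe set read 401 in MTf 4 and 255 in MTf 6, against 346 in vector 1 and 293 in vector 2, so the groups overlapped there. In both, vector 2 was below vector 1, unlike most members.

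Set between the lines of a group, all 23 tested member probe sets were higher in MTf 4 than in MTf 6, by a median of 0.70 on the log2 scale. Over all tested probe sets this median was 0.05. MTf 4 was at least 1.5-fold above MTf 6 for 16 of 23, against 12.2% of all probe sets tested, and at least 1.5-fold below for 0, against 7.26%. Vector 2 was above vector 1 for 18 of 23, by a median of 0.28, where all tested probe sets had a median of 0.01. It was at least 1.5-fold above for 2, against 7.54%, which is close to the members' share, and at least 1.5-fold below for 2, against 6.88%. Between the groups, MTf 4 was at least 1.5-fold above vector 1 for 12 of 23 (9.93% of all) and above vector 2 for 3 (6.41%). It was that far below vector 1 for 0 (7.82%) and below vector 2 for 0 (4.74%). MTf 6 was at least 1.5-fold below vector 2 for 6 (9.9%) and below vector 1 for 2 (6.44%), and at least 1.5-fold above vector 2 (6.6%) or vector 1 (4.6%) for 0. These pairs share lines and each line has 1 array, so the counts describe these arrays and carry no test. Several probe sets of a gene, above all of H2-D1 and H2-K1, are not independent. Counted as 1 probe set per gene, 9 of 9 tested genes were higher in MTf 4 than in MTf 6, 7 of them at least 1.5-fold, and 8 of 9 were higher in vector 2 than in vector 1.

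**Figure D3:**
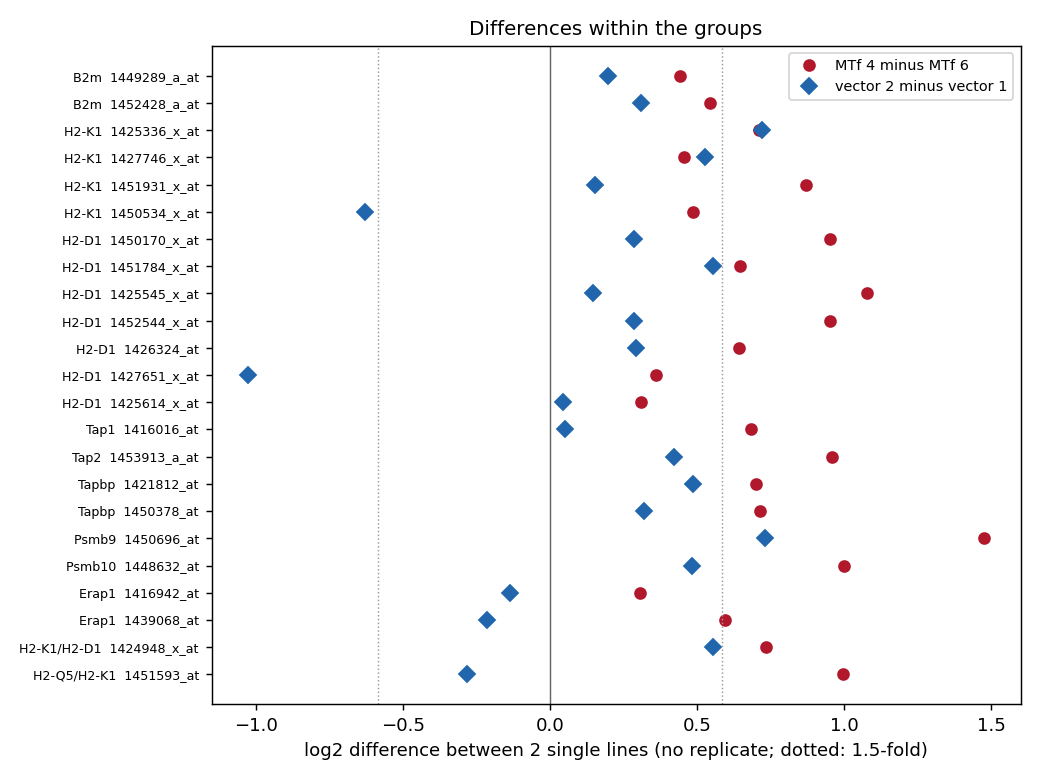
Log2 differences between the lines of a group for the 23 tested member probe sets, with circles for MTf 4 minus MTf 6 and diamonds for vector 2 minus vector 1; dotted lines mark 1.5-fold. All circles lie right of 0, with a median of 0.70, and 18 of 23 diamonds do.

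Other class I and class I-like chains were measured by 12 genes of the list, of which 5 passed the filter, and 0 of these passed limma's test in either direction. Their median log2 difference of MTf minus vector was 0.11. Fcgrt, the heavy chain of the neonatal Fc receptor, which also pairs with beta-2-microglobulin, gave 5996 in MTf 4 and 2288 in MTf 6, against 2234 in vector 1 and 3565 in vector 2. Mr1, which presents vitamin B metabolites, measured 1216 in MTf 4 and 660 in MTf 6, against 653 in vector 1 and 887 in vector 2. Both had the order of lines of the brightest H2-K1 probe set. H2-M3, a presenter of formylated peptides, gave 1573 in MTf 4 and 1160 in MTf 6, against 1277 in vector 1 and 1726 in vector 2, its highest line. H2-Q5 had a signal of 388 in MTf 4 and 252 in MTf 6, against 391 in vector 1 and 429 in vector 2.

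Some tested probe sets shared by non-classical H2 genes showed wider spreads than the tested probe sets of the member chains. A probe set shared by H2-T23, which encodes the ligand of the inhibitory receptor NKG2A, and a pseudogene read 2834 in MTf 4 and 309 in MTf 6, against 337 in vector 1 and 1156 in vector 2. It was thus 8.42-fold higher in MTf 4 than in MTf 6, and the group difference of 0.58 did not pass (limma, adjusted p = 1.00). A second probe set with the same annotation was below the filter and had another order, with 58.4 in MTf 4 and 15.0 in MTf 6, against 208 in vector 1 and 67.2 in vector 2. A probe set shared by H2-T9, H2-T22 and H2-T10 gave 10296 in MTf 4 and 4721 in MTf 6, against 4231 in vector 1 and 6757 in vector 2. These probe sets were picked with their values in view. Of others, a tested probe set of H2-Q6 and H2-Q8 was also highest in MTf 4, at 1761. A tested one of H2-Q9 and H2-Q7 read 396 in MTf 4 and 365 in MTf 6, against 424 in vector 1 and 493 in vector 2. A second probe set of H2-T9, H2-T22 and H2-T10, below the filter, was highest in MTf 6, at 190.

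The constitutive proteasome subunits that the immunoproteasome subunits replace had other orders of lines. Psmb6, the counterpart of Psmb9, measured 8659 in MTf 4 and 11557 in MTf 6, against 10750 in vector 1 and 9989 in vector 2. Psmb7, the counterpart of Psmb10, had a signal of 40692 in MTf 4 and 46760 in MTf 6, against 47476 in vector 1 and 43238 in vector 2. Psmb5, the counterpart of Psmb8, read 12367 in MTf 4 and 15335 in MTf 6, against 14929 in vector 1 and 13156 in vector 2. In all 3 MTf 4 was the lowest line, with log2 differences of -0.20 to -0.42 from MTf 6, where Psmb9 and Psmb10 had 1.47 and 1.00.

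Of the 6 measured genes of this list, which also holds proteasome activators and the assembly factor Pomp, 0 passed limma's test, 0 had a positive group difference and the median was -0.05. Psme1, a subunit of the interferon-inducible activator PA28, gave 4960 in MTf 4 and 2687 in MTf 6, against 3087 in vector 1 and 4479 in vector 2. That is the order of lines of B2m. Psme3, the nuclear activator, ran the other way, at 2321 in MTf 4 and 3369 in MTf 6, against 3421 in vector 1 and 2479 in vector 2. Psme1 was picked with its values in view. Pomp measured 14505 in MTf 4 and 15886 in MTf 6, against 19918 in vector 1 and 18895 in vector 2, with a group difference of -0.35 (limma, adjusted p = 1.00).

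General partners of peptide loading and trimming differed little between the clones. All 14 measured genes passed the filter and 0 passed limma's test, with 9 positive differences, 5 negative ones and a median of 0.08. None was 1.5-fold apart between MTf 4 and MTf 6, in either direction. The lectin chaperone Calr had a signal of 53788 in MTf 4 and 43227 in MTf 6, against 41040 in vector 1 and 47187 in vector 2. The oxidoreductase Pdia3 read 30865 in MTf 4 and 29291 in MTf 6, against 25378 in vector 1 and 33099 in vector 2. Canx, Thop1, Bcap31 and Hspa5 had group differences of 0.19, 0.41, -0.19 and 0.13.

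Regulators of class I were split. Of 28 measured genes 25 passed the filter and 0 passed limma's test, with 15 positive differences, 10 negative ones and a median of 0.05. MTf 4 was at least 1.5-fold above MTf 6 for 6 of the 25, beside 1278 of all 10682 tested genes. It was that far below MTf 6 for 0, beside 750 of all tested genes. Irf9, which carries the type I interferon signal with STAT proteins and was picked with its values in view, gave 1236 in MTf 4 and 352 in MTf 6, against 557 in vector 1 and 540 in vector 2. Irf7, an interferon-inducible factor, measured 436 in MTf 4 and 144 in MTf 6, against 134 in vector 1 and 189 in vector 2. MTf 4 stood above the other 3 lines in both genes. For Irf7 those 3 lines were under the filter's signal of about 196. It thus passed the filter only through MTf 4, and its place among the 6 follows in part from that.

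Nlrc5, the transactivator of class I genes, had a signal of 1946 in MTf 4 and 1260 in MTf 6, against 1435 in vector 1 and 1194 in vector 2. Here vector 2 was the lowest line, unlike for the brightest probe sets of the chain genes. Irf1, which drives class I and Tap1 after interferon, read 1931 in MTf 4 and 1880 in MTf 6, against 1603 in vector 1 and 1963 in vector 2. It did not set MTf 4 apart. Rfx5, of the factor complex bound at class I and class II promoters, gave 1434 in MTf 4 and 806 in MTf 6, against 805 in vector 1 and 1338 in vector 2. It too was picked with its values in view. Its partner Rfxank had a group difference of 0.53, the inhibitor Socs3 of -0.64 and the kinase Jak1 of 0.22. Stat3, which carries cytokine signals and was likewise picked with Stat2 for the plot of regulators, had 4874 in MTf 4 and 2379 in MTf 6, against 3322 in vector 1 and 3885 in vector 2.

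**Figure D4:**
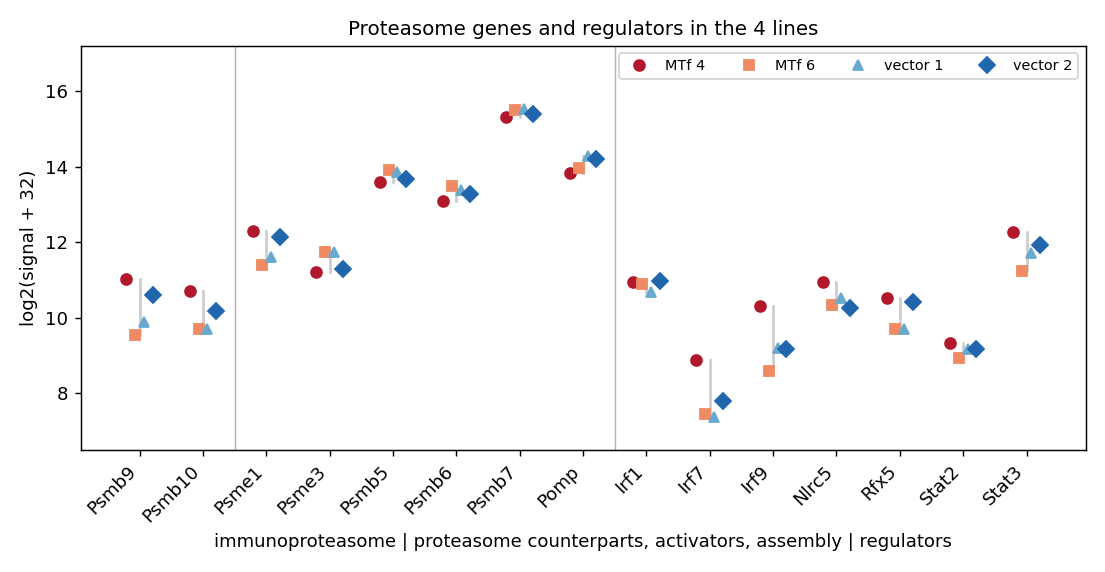
Signals of proteasome genes and regulators in the 4 lines as log2(signal + 32), 1 point per array. Psmb9, Psmb10 and Psme1 have MTf 4 and vector 2 on top, whereas Psmb5, Psmb6 and Psmb7 have MTf 4 lowest. Irf7 and Irf9 have MTf 4 above the other 3 lines, and Irf7 passed the filter only through MTf 4.

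Of the 10 members 7 lie on chromosome 17, in and beside the MHC, while B2m lies on chromosome 2, Psmb10 on chromosome 8 and Erap1 on chromosome 13. The 6 tested genes of chromosome 17 had a median log2 difference between MTf 4 and MTf 6 of 0.83, and the 3 elsewhere had 0.44, with MTf 4 higher in all 9. The 40 other tested genes between H2-K1 and H2-D1 (GRCm38.p6 chr17:33996012-35267497) had a median of 0.16, with 24 of them higher in MTf 4. The 520 other tested genes of the whole chromosome had a median of 0.12. For vector 2 minus vector 1 the medians were 0.45 for the members on chromosome 17, 0.20 for those elsewhere, 0.16 for the other genes between H2-K1 and H2-D1 and 0.07 for the other genes of the chromosome.

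The genes outside the lists whose profile over the 4 lines lay nearest to the members' median profile, by Euclidean distance of centred log2 values, were Cbr4, Zfp759, Pgap6, Ech1 and Gstm2, at distances of 0.03 to 0.06. Cbr4, a mitochondrial reductase, measured 3018 in MTf 4 and 1769 in MTf 6, against 1914 in vector 1 and 2390 in vector 2. With 4 arrays and 10682 tested genes, close profiles are to be found for many shapes, and the likeness is a description only.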

How the data were processed

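Total RNA of 4 lines was hybridised to 1 array each, and the authors deposited 1 linear intensity for each probe set, for which GCOS 1.3 is named per the submitters' processing notes. Groups came from the labels. Of 45101 probe sets 64 were controls. The platform annotation pairs 34945 of the rest with 1 gene and 932 with several, and 9160 are unnamed here.

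Signals were converted to log2(signal + 32) with no further scaling, and all log2 values and folds are on that scale, which compresses dim signals. The filter kept means at or above the median, and 22519 probe sets were tested with limma 3.58.1 in R 4.3.3 (lmFit, eBayes with a trend; MTf minus vector; 4 arrays; Benjamini-Hochberg over all tested; threshold 0.05). The fit was tried on simulated data with 1 common spread and a shift larger than the difference of Meltf. That does not measure its power in these data. Lists are described by counts and medians over 1 probe set per gene, the one with the highest mean. Pairs of single lines were compared at 1.5-fold with no test. Named genes were all member probe sets, a set of regulators, proteasome counterparts and loading partners, up to 4 genes per list with the smallest p, and 5 nearest profiles; exceptions are stated. The members and lists were chosen with earlier results of these data known, and motif spellings with the promoters in view. The alternatives were other offsets, scalings, filters and variance settings, the mean of all probe sets of a gene, and leaving out each array.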

Additional observations from a re-analysis of the deposited data

Results flagged for a closer look

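A dim probe set shared by H2-D1, H2-Q2 and the predicted gene Gm38417 lay below the filter and so outside the test, where the clones were above the controls. It read 97.1 in MTf 4 and 96.5 in MTf 6, against 14 in vector 1 and 21.5 in vector 2. MTf 6, the lower of the clones, was 2.40-fold above vector 2 on the log2(signal + 32) scale. The difference was not tested, and of the 7 tested probe sets of H2-D1 1 set the groups apart.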

How the results depend on the processing

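No paired analysis was possible because the groups share no replicate number. With each array left out in turn, 0 of the 23 tested member probe sets passed the threshold, and 20 of the 23 took both signs among the 5 fits. Without MTf 4 the difference was positive for 3 of 23, without vector 1 for 8, without vector 2 for 18 and without MTf 6 for 22. Such fits hold 1 array in a group, which is assumed to vary like the other group. For those 20 the ranges of the log2 difference were, by brightness within each gene, B2m -0.15 to 0.29 and -0.26 to 0.29, H2-K1 -0.068 to 0.65, -0.12 to 0.41, -0.45 to 0.42 and -0.61 to 0.014, H2-D1 -0.48 to 0.47, -0.34 to 0.31, -0.69 to 0.39, -0.60 to 0.35, -0.19 to 0.46 and -0.37 to 0.66. For the rest they were Tap2 -0.32 to 0.64, Tapbp -0.35 to 0.35 and -0.24 to 0.48, Psmb9 -0.69 to 0.78, Psmb10 -0.24 to 0.76, Erap1 (dimmer) -0.29 to 0.30, H2-K1 with H2-D1 -0.24 to 0.49, H2-Q5 with H2-K1 -0.36 to 0.63. The median over the 9 tested genes, 0.16, lay between -0.24 without MTf 4 and 0.64 without MTf 6. With the mean of all probe sets of each gene, it was 0.05 over the 10 members. That mean included Psmb8 and the other probe sets of single members below the filter. The count of all probe sets called, 1 with all arrays, was higher with any array left out, from 2 without vector 1 to 25 without MTf 4.

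Under the 8 other settings 0 of the tested member probe sets passed. The array-wide call ended without a filter, with 0 called, and without a trend, also with 0. Quantile normalization turned the B2m differences to -0.051 and -0.070. Centring each array on its median turned those of 3 near-zero probe sets, of H2-K1 to 0.0085 and of H2-D1 to 0.025 and 0.011. Under every offset and scaling run, MTf 4 was above MTf 6 for 23 of 23 tested member probe sets and vector 2 above vector 1 for 18. MTf 4 was the highest line for 21 of 23, or 20 with quantile normalization. The median over members of MTf 4 minus MTf 6 lay between 0.69 and 0.72 over the tested probe sets. Whether dim probe sets such as those of Psmb8 differ was not detectable at these signals.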
